A study of Homo sapiens with 3 samples.

Results

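The data describe the protein tyrosine phosphatases, with CD45 (PTPRC) shown probe set by probe set, in a drug-sensitive leukaemia line and its multidrug-resistant derivative. A gene was included where at least 1 probe set of the array was assigned to it alone and its symbol was PTPN with a number, PTPR with 1 letter and at most 1 digit, PTPRCAP, or PTP4A1 to PTP4A3. PTPRCAP is the CD45-associated protein and not itself a phosphatase. Antisense genes and pseudogenes were left out. The rule used symbols and no measured value, and it gave 37 genes of 19775 with a probe set of their own, covered by 110 probe sets of 54675.

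Protein tyrosine phosphatases remove phosphate from tyrosine residues and so oppose or permit the work of tyrosine kinases. The receptor-type members cross the cell membrane, the PTPN members lie in the cytosol or on internal membranes, and the PTP4A members are small prenylated enzymes also called PRL phosphatases. CD45 is an abundant surface phosphatase of nucleated blood cells that removes the inhibitory C-terminal phosphate of Src family kinases, while PTPN6 (SHP-1) is recruited to inhibitory receptors and dampens signalling in B cells.

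SupB15 is a cell line from a B-cell precursor acute lymphoblastic leukaemia, and it was represented by 1 array of cells in normal medium, labelled drug sensitive. SupB15-MR cells, labelled multiple drug resistant, were represented by 2 arrays labelled as biological replicates, also of cells in normal medium; the description of replicate 2 names the cells SupB15-MR5, and the study's legends speak of SupB15-MR clones. Per the study's methods the SupB15-MR cells were derived from SupB15 cells that were kept in medium conditioned by HS-5 stromal cells, exposed to mitoxantrone and then returned to drug-free medium, so that all 3 arrays trace to 1 line and the resistant cells had passed through a drug selection that the parental cells had not. All cells were grown in RPMI1640 with serum at the same passages, and RNA was hybridised to Affymetrix U133 Plus 2 arrays. Arrays of cells in conditioned medium were not analysed here.

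Values are log2 expression values from robust multi-array average (RMA) processing, and 1 unit is a 2-fold difference. Because SupB15 had 1 array, the spread used in every test came from the 2 SupB15-MR arrays alone and may be the spread between separate clones, and an exact test over 1 against 2 arrays has 3 splits and cannot give a p below 0.333. Each probe set is therefore given first by its 3 values and by whether both SupB15-MR arrays lay at least 2-fold away from SupB15 in the same direction, which is not a test. The moderated test of limma is set beside it, with a call at an adjusted p of at most 0.05 and at least 2-fold, and "rose" and "fell" below refer to that call only. The 20th percentile of the deposited values was 3.47, and a probe set that exceeded it in none of the 3 arrays was not tested. This left 92 of the 110 phosphatase probe sets, covering 34 of the 37 genes, and 46034 probe sets in all.

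The array medians were 5.08 in SupB15, 5.27 in SupB15-MR replicate 1 and 5.28 in replicate 2, a shift of 0.19 between the groups. The SupB15-MR arrays correlated at r = 0.994 across tested probe sets, and 42.7% of all probe sets held exactly the same value in both of them. Among the tested phosphatase probe sets 29 of 92 did so, and the remaining pairs differed by at most 0.84. The 11 precursor B-cell markers measured lay above 3.47 in every array, with medians of 10.5 in SupB15, 10.3 in replicate 1 and 10.3 in replicate 2. Single markers did not stay level: 1 of the 11 rose and 3 fell (limma). VPREB1, a surrogate light chain gene, read 10.5, 4.22 and 3.94 and fell by 6.41 (limma, adjusted p = 0.0202), IGLL1, its partner, fell by 2.31 (limma, adjusted p = 0.00289) and CD24 fell by 2.13 (limma, adjusted p = 0.04997), while MME (CD10) rose by 1.54 (limma, adjusted p = 0.0409). The summed level of 7 T-cell markers (log2 of the sum of linear values) was 7.12 in SupB15, 6.73 in replicate 1 and 6.76 in replicate 2. For 7 myeloid markers it was 7.82, 8.64 and 7.99, and for 8 stromal markers 9.13, 8.11 and 8.01, in the same order. Their part in the differences below was not tested.

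CD45 was the member with the widest difference between the lines. PTPRC lies on chromosome 1 from 198638713 to 198757476 (GRCh38.p14), and 5 probe sets were assigned to it alone. The probe set 212587_s_at read 3.69 in SupB15, 11.2 in SupB15-MR replicate 1 and 10.9 in replicate 2. The SupB15 value lay close to the 20th percentile of the arrays, and both SupB15-MR values were far above it, 0.26 apart. The difference was 7.39 ± 0.20 (SE), or 168-fold, and PTPRC rose on this probe set (limma, adjusted p = 0.0161). A 1-way ANOVA, which takes no spread from other probe sets, did not call it (Benjamini-Hochberg adjusted p = 0.143).

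The other tested PTPRC probe sets lay on the same side of SupB15. The probe set 207238_s_at read 4.07 in SupB15, 9.58 in replicate 1 and 9.09 in replicate 2, a difference of 5.26 ± 0.38 (SE) or 38.4-fold, and rose (limma, adjusted p = 0.0439). The probe set 212588_at read 2.75 in SupB15, 9.03 in replicate 1 and 8.36 in replicate 2, and did not pass (limma, adjusted p = 0.0524), though it passed with each array centred on its median (limma, adjusted p = 0.0205). SupB15 lay under 3.47 on 212588_at, so this probe set was tested only because SupB15-MR was high, and counted from 3.47 the SupB15-MR mean was at least 37.4-fold higher. Replicate 1 was the higher of the SupB15-MR arrays on all 3 probe sets, and on none did the lines overlap. The remaining probe sets stayed at the floor of the arrays and were not tested: 1552480_s_at read 2.20, 3.28 and 2.98, and 1569830_at read 2.68, 3.20 and 2.90, in SupB15 and replicates 1 and 2. The 5 probe sets thus split into 3 with a difference above 5 and a pair with no value above 3.47 in any array. Which CD45 exons each probe set reads was not tested, since probe sequences were not used here. In bulk RNA, fewer cells carrying a transcript and less transcript per cell cannot be told apart, here and in all comparisons below.

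**Figure D1:**
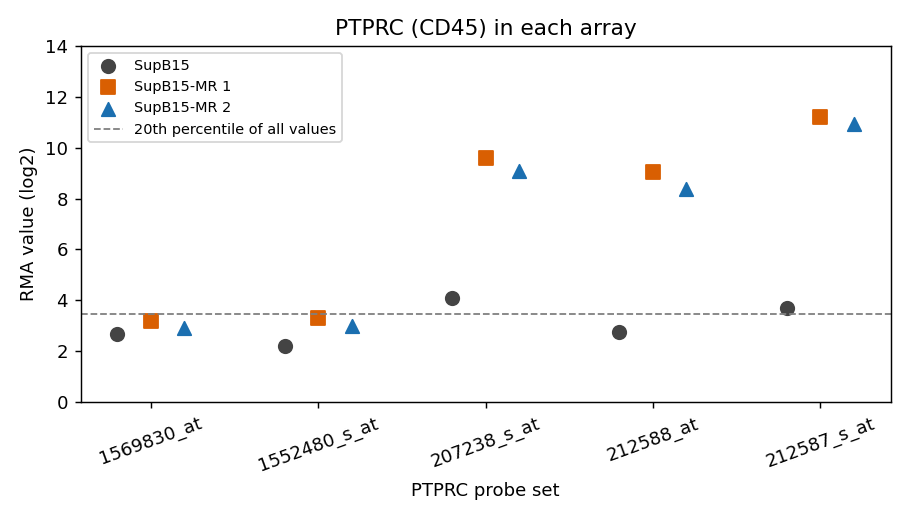
RMA values (log2, vertical axis) of the 5 PTPRC probe sets (horizontal axis) in the SupB15 array (circles) and the 2 SupB15-MR arrays (squares and triangles); the dashed line is the 20th percentile of all values, 3.47. On 3 probe sets both SupB15-MR arrays read between 8.36 and 11.2 and SupB15 at most 4.07, while the other probe sets stayed below the line in all arrays.

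PTPRCAP, a small transmembrane protein bound to CD45, went the other way. It read 9.18 in SupB15, 7.44 in SupB15-MR replicate 1 and 7.42 in replicate 2, and it fell by 1.75 on the log2 scale (SE 0.0091; limma, adjusted p = 0.00261). CD45 and the protein that accompanies it were thus measured in opposite directions in the same RNA.

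Sequence before a start is shown for 3 members, PTPRC as the member with the highest rise, PTPN14 as the one with the largest fall and PTPN6 as the B-cell signalling member that fell; the values of the last pair follow further on. The windows are the 250 bases before a RefSeq start on GRCh38.p14, 5′ to 3′ on the strand of the gene, and each CG dinucleotide is in capitals.
PTPRC (chr1:198638790-198639039, plus strand): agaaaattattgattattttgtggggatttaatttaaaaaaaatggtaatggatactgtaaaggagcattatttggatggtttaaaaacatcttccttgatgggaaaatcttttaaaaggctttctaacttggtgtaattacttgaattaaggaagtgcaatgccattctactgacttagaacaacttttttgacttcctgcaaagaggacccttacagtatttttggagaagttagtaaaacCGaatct
PTPN14 (chr1:214551603-214551852, minus strand): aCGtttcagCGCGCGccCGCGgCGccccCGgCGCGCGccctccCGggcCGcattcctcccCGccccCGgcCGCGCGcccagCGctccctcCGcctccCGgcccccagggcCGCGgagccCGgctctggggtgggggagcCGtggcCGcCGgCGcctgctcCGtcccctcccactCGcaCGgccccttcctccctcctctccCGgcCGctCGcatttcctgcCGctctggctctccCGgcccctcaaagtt
PTPN6, second of its 2 listed starts (chr12:6951106-6951355, plus strand): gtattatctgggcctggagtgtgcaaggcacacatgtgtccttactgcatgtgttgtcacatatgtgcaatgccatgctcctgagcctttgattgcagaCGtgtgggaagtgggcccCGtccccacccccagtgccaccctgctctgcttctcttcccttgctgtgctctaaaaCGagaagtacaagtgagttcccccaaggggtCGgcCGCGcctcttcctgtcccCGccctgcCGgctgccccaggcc
The PTPRC window held 1 CG and 31.2% G or C, and the PTPN14 window 36 CG and 80.0% G or C. The PTPRC window begins inside the gene span given above (from 198638713), so it precedes a start within that span and not its first base. The PTPN6 window held 8 CG and 59.6% G or C, and the window of its first start 10 CG and 66.4%. Across all 35116 windows of the table the median was 11 CG and 58.0% G or C. At most 1 CG was found in 14.7% of them and 36 or more in 4.85%; 93.9% held at least 1. Among the phosphatases, 33 of 37 genes had a window, and their 56 windows held 0 to 44 CG with a median of 14.5. Members in both directions lay across this range. PTPRM, PTPRS and PTPRK, which each had a probe set that rose, had first windows with 42, 44 and 38 CG, and the 3 windows of PTPN7, which was lower in SupB15-MR, held 4 to 8. These counts describe letters, and no methylation was measured.

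Over all tested phosphatase probe sets, 25 of 92 (27.2%) were at least 2-fold higher in both SupB15-MR arrays and 14 (15.2%) at least 2-fold lower, with 53 in neither class. Of the 25, 4 had a SupB15 value under 3.47 and were tested only because SupB15-MR was high. Of the 85 phosphatase probe sets with SupB15 above 3.47, 21 were 2-fold higher. The share over all probe sets with SupB15 above 3.47 is not given here, so the 21 cannot be set against it. Among all 46034 tested probe sets 18.3% were 2-fold higher and 15.0% were 2-fold lower. By limma 19 (20.7%) rose and 6 (6.52%) fell, where 13.1% of all probe sets rose and 9.71% fell. The median difference of the phosphatase probe sets was 0.12 and that of all tested probe sets 0. Some tested probe sets held exactly the same deposited value in all 3 arrays, such as PTPRB on 205846_at at 4.27. How many did so over all probe sets is not given here. With each array centred on its median the counts of phosphatase probe sets became 20 higher and 15 lower by the 2-fold rule, and 18 risen and 14 fallen by limma. The same centring changed the calls over all probe sets from 6021 risen and 4470 fallen to 6557 and 7798, and the 2-fold counts from 8405 higher and 6895 lower to 6975 and 8474.

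Taking 1 probe set a gene, that with the highest mean over the 3 arrays, 13 of 34 genes (38.2%) were at least 2-fold higher in both SupB15-MR arrays and 5 (14.7%) at least 2-fold lower. Among all 17530 genes these shares were 16.2% and 13.9%. By limma 11 genes (32.4%) rose and 3 (8.82%) fell, against 11.8% and 9.05% of all genes. This choice of probe set leans towards those high in SupB15-MR, which supplied 2 of the 3 arrays. With the probe set highest in SupB15, a choice that leans the other way, 7 genes rose and 5 fell. With the mean over all probe sets of a gene, 5 rose and 3 fell. For these choices the shares over all genes are not given here, so the counts cannot be set against 11.8% and 9.05%.

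**Figure D2:**
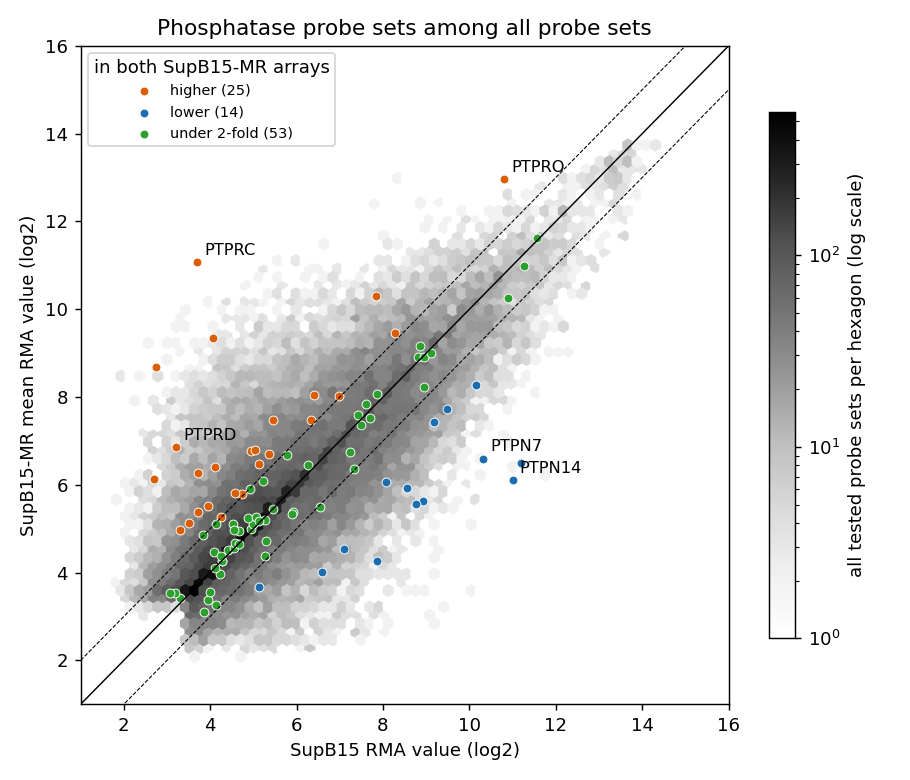
RMA value in SupB15 (log2, horizontal axis) against the mean of the 2 SupB15-MR arrays (log2, vertical axis); grey hexagons count all 46034 tested probe sets on a log scale and coloured points are the 92 phosphatase probe sets, with the diagonal and the 2-fold lines drawn. The 25 orange points are higher and the 14 blue points lower in both SupB15-MR arrays, and the 3 PTPRC probe sets lie at the upper left.

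Probe sets of 1 gene did not always move together. At least 1 probe set was 2-fold away in both SupB15-MR arrays in 25 genes and none in 12, and 19 genes had a higher and 10 a lower probe set. The 12 include PTPN20, PTPRR and PTPRZ1, which had no tested probe set. In 4 genes, PTPN12, PTPN18, PTPRG and PTPRK, probe sets lay on opposite sides. Of the 26 genes with several tested probe sets, all were 2-fold higher in PTPRC and PTPRM and all were 2-fold lower in PTPN14 and PTPN7. Shares over all genes by the same rules are not given here, so none of these gene counts can be set against them. Probe sets of a gene can read different transcripts or, where they lie outside the mature transcript, unspliced RNA, and which of these applies was not tested.

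**Figure D3:**
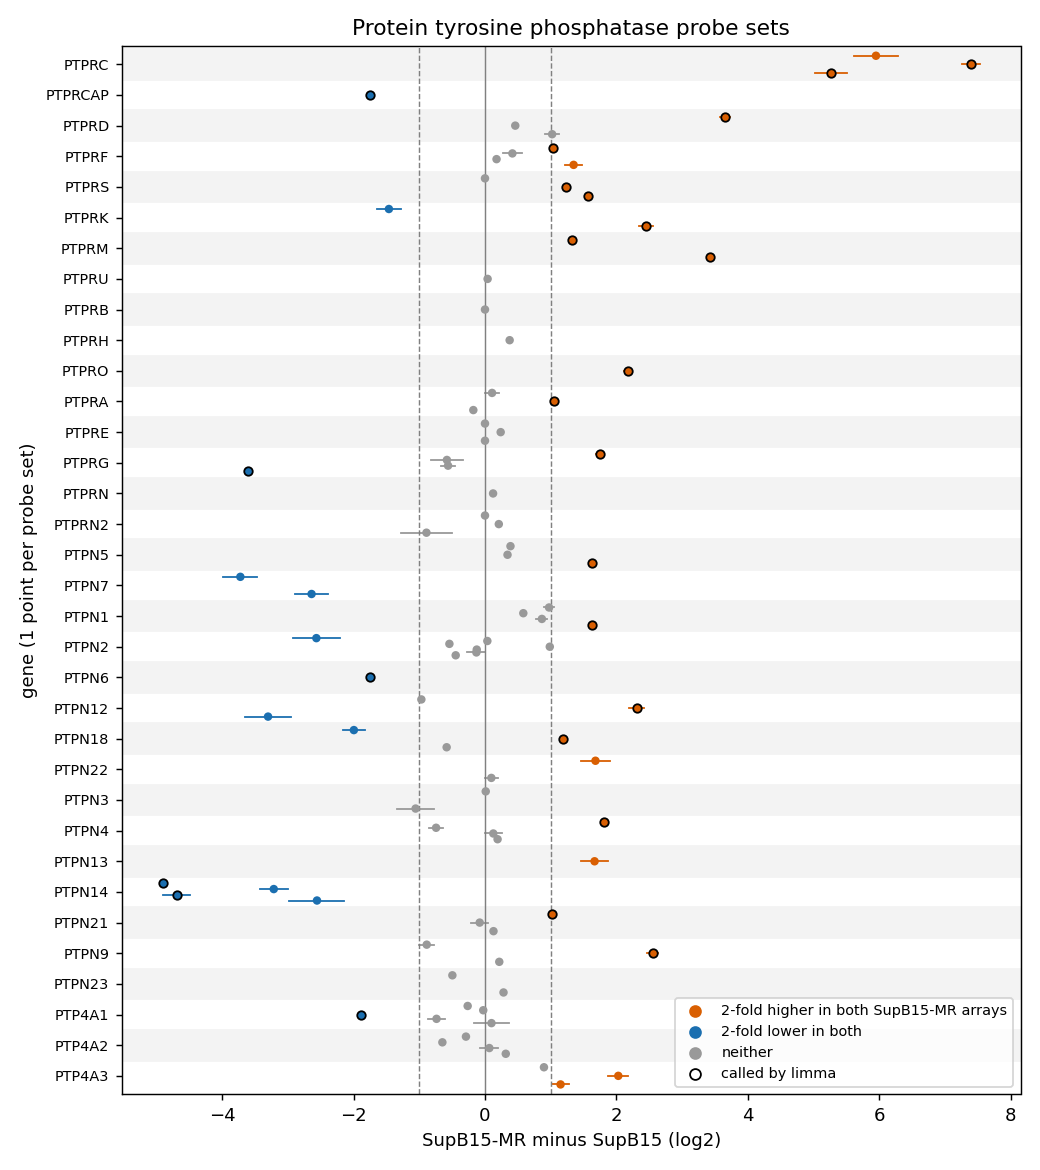
Difference of SupB15-MR from SupB15 (log2, horizontal axis) for the 92 tested phosphatase probe sets, grouped by gene (vertical axis); points are the mean of the SupB15-MR arrays, bars join their separate values, colours mark the 2-fold rule, black rims a limma call and dashed lines the 2-fold limits. PTPRC reaches 7.39 and PTPN14 falls to -4.90, and most bars are short beside these differences.

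The receptor-type phosphatases held most of the higher probe sets. Without PTPRCAP, 14 of their 35 tested probe sets were at least 2-fold higher in both SupB15-MR arrays and 2 were lower. For the PTPN members it was 9 higher and 10 lower of 44. Over all tested probe sets the shares were 18.3% higher and 15.0% lower. The 14 include 3 of PTPRC. Among them, PTPRC on 212588_at, PTPRD on 214043_at and PTPRM on 1555579_s_at were tested only because SupB15-MR was high. The difference between the receptor-type and PTPN classes was not tested. The LAR-type receptors PTPRD, PTPRF and PTPRS are cell adhesion receptors best known from neurons, where they organise synapses and axon growth. Of their 10 tested probe sets 5 were higher and none was lower. PTPRD on 214043_at read 3.21 in SupB15, 6.79 in replicate 1 and 6.94 in replicate 2, and rose (limma, adjusted p = 0.0194). SupB15 lay under 3.47 on this probe set, which was tested only because SupB15-MR was high, and counted from 3.47 the SupB15-MR mean was at least 10.5-fold higher. On 205712_at PTPRD read 3.83, 4.96 and 4.74, which was under 2-fold in replicate 2. PTPRS read 3.96, 5.50 and 5.55 on 210823_s_at and 4.58, 5.81 and 5.81 on 226571_s_at, and rose on both by 1.56 and 1.23 (limma, adjusted p = 0.0151 and 0.000645); its remaining tested probe set held 4.11 in all arrays. PTPRF rose by 1.04 on 215066_at (4.74, 5.81 and 5.76; limma, adjusted p = 0.0227), while 200635_s_at was 1.35 higher without passing (5.14, 6.36 and 6.61; limma, adjusted p = 0.087). The brightest PTPRF probe set, 200636_s_at, was nearly level at 7.42, 7.57 and 7.61, and 200637_s_at was 0.42 higher, so the gene was not 2-fold higher throughout.

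PTPRK and PTPRM are receptors with a MAM domain that bind their own kind on neighbouring cells; PTPRM was higher on both of its probe sets and PTPRK lay on both sides. PTPRM read 2.71 in SupB15 and 6.14 in both SupB15-MR arrays on 1555579_s_at, and 5.37 and 6.69 on 203329_at, and rose on both, by 1.32 on the latter (limma, adjusted p = 0.000645 for each). The SupB15-MR values were identical on both probe sets, so these small p-values rest on a spread of 0. On 1555579_s_at SupB15 lay under 3.47, and counted from 3.47 the SupB15-MR mean was at least 6.35-fold higher. PTPRK on 203038_at read 7.85 in SupB15, 10.4 in replicate 1 and 10.2 in replicate 2, and rose by 2.45 (limma, adjusted p = 0.0402). Its second probe set, 233609_at, read 5.14, 3.50 and 3.85, which was 1.46 lower without passing (limma, adjusted p = 0.113). PTPRU, of the same family, was flat at 5.13, 5.17 and 5.17.

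PTPRO, a receptor with fibronectin repeats first described in kidney podocytes and also present in B cells, read 10.8 in SupB15, 13.0 in replicate 1 and 12.9 in replicate 2 on 211600_at. It was bright in SupB15 already and rose by 2.17 or 4.50-fold (limma, adjusted p = 0.0246). The other PTPRO probe sets stayed at or below 3.26 in all arrays and were not tested, so this rise rests on 1 probe set. PTPRA, a short receptor that activates SRC by removing the same inhibitory phosphate as CD45 does, rose by 1.05 on 213799_s_at (6.97, 8.03 and 8.01; limma, adjusted p = 0.00679) and was 0.18 lower on 213795_s_at (7.70, 7.52 and 7.52). With the arrays centred on their medians the PTPRA and PTPRF differences of about 2-fold dropped under that limit, as did those of PTPN18 on 203555_at and PTPN21 named below.

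PTPRG, a receptor with a carbonic anhydrase-like domain, lay on both sides. On 1569323_at it read 7.87 in SupB15 and 4.27 in both SupB15-MR arrays and fell by 3.60 (limma, adjusted p = 0.000645). On 244574_at it read 5.04, 6.86 and 6.74 and rose by 1.76 (limma, adjusted p = 0.0316). The other PTPRG probe sets were 0.56 and 0.58 lower and neither passed, so no direction can be given for the gene. PTPRB, PTPRE, PTPRH, PTPRN and PTPRN2 had no probe set that was 2-fold away in both arrays, with differences from -0.89 to 0.38. PTPRR and PTPRZ1 were not tested, as none of their values exceeded 2.74.

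The lowest differences of the cytosolic phosphatases were in PTPN14, which fell, and PTPN7, which was lower without passing; both lie on the same chromosome arm as PTPRC, from 214348700 to 214551602 and from 202147013 to 202161588 of chromosome 1 (GRCh38.p14). PTPN14, a FERM-domain phosphatase known as a partner and inhibitor of the Hippo effector YAP, had 4 probe sets and all were lower. On 244533_at it read 11.0 in SupB15, 6.10 in replicate 1 and 6.10 in replicate 2 and fell by 4.90 on the log2 scale (limma, adjusted p = 0.000645). On 226282_at it read 11.2, 6.29 and 6.70 and fell by 4.69 (limma, adjusted p = 0.0406). Both probe sets were bright in SupB15, and in both SupB15-MR arrays they lay above the array median but far below SupB15. The probe sets 242321_at (8.77, 5.35 and 5.78) and 205503_at (7.09, 4.12 and 4.96) were 3.21 and 2.56 lower, and neither passed (limma, adjusted p = 0.0617 and 0.152).

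PTPN7, the haematopoietic phosphatase that binds and inactivates the MAP kinases ERK and p38, read 10.3 in SupB15, 6.34 in replicate 1 and 6.86 in replicate 2 on 204852_s_at. On 1554860_at it read 8.56, 5.67 and 6.16. The SupB15-MR arrays lay 3.72 and 2.64 below SupB15, 13.2-fold and 6.22-fold lower, but were 0.52 and 0.49 apart from each other. Neither probe set passed (limma, adjusted p = 0.0641 and 0.0855), while with centred arrays both were called (limma, adjusted p = 0.0235 and 0.0333). PTPN5, a neuronal member of the same MAP kinase-binding group, rose by 1.62 on 233470_at (3.50, 5.13 and 5.13; limma, adjusted p = 0.000645). SupB15 lay just above 3.47 on this probe set, and the identical SupB15-MR values mean that the small p-value rests on a spread of 0. The other tested PTPN5 probe sets, 233471_at and 236456_at, were only 0.34 and 0.39 higher.

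PTPN6 (SHP-1), an inhibitor of B-cell receptor signalling, was measured by 1 probe set. It read 9.48 in SupB15, 7.68 in replicate 1 and 7.80 in replicate 2, and fell by 1.74 on the log2 scale (SE 0.0891; limma, adjusted p = 0.0315), 3.35-fold. Both SupB15-MR arrays lay well below SupB15 and 0.12 apart.

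PTPN1 (PTP1B), the endoplasmic reticulum phosphatase that acts on the insulin receptor and on JAK2, was higher on all 4 of its probe sets. It rose by 1.63 on 202716_at (6.41, 8.03 and 8.06; limma, adjusted p = 0.00803), and the other differences were 0.58, 0.87 and 0.97. Its close relative PTPN2, which acts on JAK1 and STAT proteins, showed no common direction. On 243410_at it read 6.58, 4.37 and 3.66 and was 2.56 lower without passing (limma, adjusted p = 0.128). The other 6 probe sets of PTPN2 differed by -0.54 to 0.99.

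Among the PEST-type phosphatases, PTPN12, PTPN18 and PTPN22, which act on adhesion and antigen receptor kinases, probe sets disagreed. PTPN12 on 202006_at read 8.93 in SupB15, 5.98 in replicate 1 and 5.29 in replicate 2 and was 3.30 lower without passing (limma, adjusted p = 0.096). On 216884_at PTPN12 read 4.11, 6.53 and 6.30 and rose by 2.31 (limma, adjusted p = 0.0447). The remaining PTPN12 probe set was 0.97 lower, so the gene had no single direction. PTPN18 rose by 1.18 on 203555_at (8.27, 9.41 and 9.50; limma, adjusted p = 0.0357) and was 1.99 lower on 213521_at (8.07, 5.90 and 6.24; limma, adjusted p = 0.0779). PTPN22, which restrains antigen receptor signalling in lymphocytes together with CSK, was higher on 208010_s_at without passing (3.30, 5.19 and 4.76; limma, adjusted p = 0.119), at least 2.84-fold when counted from 3.47, and within 0.10 on 206060_s_at.

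The remaining cytosolic members gave single probe sets that stood apart. PTPN9, which sits on secretory vesicles, rose by 2.55 on 230140_at (3.72, 6.36 and 6.20, limma, adjusted p = 0.0296), while 202958_at, bright in all arrays, read 7.86, 8.07 and 8.07. The remaining PTPN9 probe set, 233226_at, was 0.89 lower without passing (4.14, 3.37 and 3.14), so the gene had no single direction. PTPN4, a FERM-domain member, rose by 1.81 on 236935_at (4.95, 6.77 and 6.77; limma, adjusted p = 0.000645) and lay between -0.74 and 0.19 on the others. PTPN21, of the same family, rose by 1.02 on 222092_at (4.24, 5.26 and 5.26; limma, adjusted p = 0.000645), barely past 2-fold, with its other tested probe sets at -0.08 and 0.13. PTPN13 was 1.67 higher without passing (3.71, 5.59 and 5.17; limma, adjusted p = 0.116). PTPN3 on 203997_at read 6.54, 5.20 and 5.76 and was 2-fold lower in replicate 1 only. PTPN23 differed by -0.50 and 0.28, and the only PTPN20 probe set did not exceed 2.20 and was not tested.

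The PRL phosphatases, small enzymes linked to growth and metastasis, were expressed in both lines. PTP4A2 read 11.6 in SupB15, 11.8 in replicate 1 and 11.5 in replicate 2 on 208616_s_at, and its 4 probe sets differed by -0.65 to 0.32. PTP4A1 fell by 1.89 on 200732_s_at (10.2, 8.25 and 8.29; limma, adjusted p = 0.00997), but read 8.94, 8.93 and 8.90 on 200733_s_at, so that its 5 probe sets ran from 0.10 higher to 1.89 lower. PTP4A3 was 1.15 higher on 206574_s_at (6.32, 7.35 and 7.60; limma, adjusted p = 0.0999) and 2.03 higher on 209695_at (5.45, 7.32 and 7.63; limma, adjusted p = 0.0703), and neither passed. On the remaining PTP4A3 probe set it was 0.90 higher.

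Of the 39 phosphatase probe sets at least 2-fold away in both SupB15-MR arrays, 14 did not pass limma, and 7 of the 25 that passed held identical SupB15-MR values. Just inside the 2-fold limit lay PTPN21 at 1.02 and PTPRF at 1.04, and just outside lay PTPN2 on 241622_at at 0.99 (4.13, 5.12 and 5.12), with PTPRD on 205712_at at a mean of 1.02 but under 2-fold in replicate 2.

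The genes around CD45 and its substrates were taken from lists of textbook membership, each gene by its most intense probe set; over all genes tested that way 11.8% rose, 9.05% fell and the median difference was 0. The Src family kinases, which CD45 acts on, split: of 7 tested, 1 rose and 2 fell, with a median difference of -0.59. YES1, a widely expressed member, read 2.31 in SupB15, 7.92 in replicate 1 and 7.97 in replicate 2 and rose (limma, adjusted p = 0.00395), at least 22.3-fold when counted from 3.47. LCK, the classical CD45 substrate of T cells that some B-cell leukaemias also carry, read 7.79, 5.12 and 5.12 and fell by 2.67 (limma, adjusted p = 0.000645). FYN read 9.97, 8.38 and 8.30 and fell by 1.63 (limma, adjusted p = 0.0233). SRC itself was 1.20 higher without passing (5.22, 6.48 and 6.35; limma, adjusted p = 0.0523). YES1 was under 3.47 in SupB15, so that its probe set was tested only because SupB15-MR was high, while FYN and LCK stayed above 3.47 in all arrays. Of CSK, the kinase that adds the inhibitory phosphate, and the genes listed with it (MATK, PAG1, LIME1, CBL and CBLB), none of 6 tested was called on its most intense probe set. PAG1, the membrane anchor of CSK, was 1.47 lower there (12.3, 10.7 and 10.9; limma, adjusted p = 0.0509). On other probe sets CBL rose on 2 of 5, and PAG1 and CBLB each fell on 1 of 3.

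Of the receptors that carry the inhibitory motif bound by PTPN6, 1 of 10 tested rose and 1 fell, with a median difference of -0.03. PECAM1, an adhesion receptor of blood and endothelial cells, read 10.2 in SupB15, 6.38 in replicate 1 and 6.05 in replicate 2 and fell by 4.01 (limma, adjusted p = 0.0385). SIGLEC10, a sialic acid receptor of B cells, rose by 1.14 (4.53, 5.66 and 5.66, limma, adjusted p = 0.000645). CD22 was not called on its most intense probe set, but was 0.58 to 2.37 higher on its 4 probe sets and rose on 1. SIRPA rose on 1 of 3 and CEACAM1 on 1 of 5, while PECAM1 fell on 4 of 5. Of 10 genes of proximal B-cell receptor signalling, 1 rose and 2 fell, with a median difference of -0.08. SH2B2, an adaptor, fell by 2.69 (7.81, 4.99 and 5.24, limma, adjusted p = 0.0425). BANK1 fell on 3 of 3 probe sets, by 1.28 on the most intense (5.97, 4.69 and 4.69, limma, adjusted p = 0.000645). VAV1 rose by 1.04 (8.16, 9.14 and 9.25, limma, adjusted p = 0.049), but was under 2-fold in replicate 1. PLCG2, the phospholipase of the pathway, was 2.38 higher (8.42, 11.0 and 10.6), BLNK, its scaffold, 2.08 lower (11.3, 9.46 and 9.06), and VAV2 1.84 higher (5.45, 7.18 and 7.40), and none of these passed (limma, adjusted p = 0.0608, 0.088 and 0.0566). For PLCG2 only 1 of 4 probe sets was 2-fold higher. Its probe sets differed by -0.75 to 2.38 with a median of 0.22, so no common direction can be given for it. BLNK had 1 probe set. On other probe sets CD79B rose on 1 of 3 and SYK fell on 1 of 4.

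Of the JAK kinases and STAT factors, on which PTPN1 and PTPN2 act, none of 9 tested was called on its most intense probe set and the median difference was 0. This median was that of JAK3, which held 8.35 in all 3 arrays. STAT5A was 1.69 higher (6.66, 8.11 and 8.58; limma, adjusted p = 0.131). On other probe sets STAT5B fell on 2 of 5, and JAK1 rose on 1 of 5 and fell on 1. Of 10 dual-specificity phosphatases of MAP kinases, which share targets with PTPN7, DUSP1 rose by 1.41 (9.21, 10.6 and 10.7, limma, adjusted p = 0.0426). DUSP7 fell by 1.11 (8.32, 7.21 and 7.21, limma, adjusted p = 0.000645) and the other 8 were not called. The median difference of the 10 was 0, with DUSP2 at 4.83 and DUSP16 at 6.97 in all 3 arrays.

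The proteins that regulate splicing of the variable CD45 exons had 3 of 8 members risen and 1 fallen, with a median difference of 0.68. THRAP3, a protein that binds SFPQ, read 6.21 in SupB15, 10.8 in replicate 1 and 11.0 in replicate 2 and rose by 4.70 (limma, adjusted p = 0.0144). HNRNPLL, which promotes exclusion of the variable exons in activated lymphocytes, read 3.46, 6.42 and 6.42 and rose (limma, adjusted p = 0.000725), at least 7.73-fold when counted from 3.47. HNRNPL, its relative, read 8.82, 11.6 and 11.7 and rose by 2.85 (limma, adjusted p = 0.0195). CELF2 fell by 1.64 (12.0, 10.4 and 10.2; limma, adjusted p = 0.0413). The choice of probe set mattered in both directions. For THRAP3 the one highest in SupB15 differed by -0.03. PTBP1, PTBP3 and SFPQ were not called on their most intense probe sets, but rose on 3 of 4, 4 of 5 and 3 of 5 probe sets. CELF2 fell on 3 of 7.

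Of 10 binding partners and ligands of CD45, 2 rose and 2 fell, PTPRCAP among the latter, with a median difference of -0.45. LGALS3, galectin-3, read 3.76, 6.62 and 6.63 and rose by 2.87 (limma, adjusted p = 0.000645). MRC1, the mannose receptor, fell by 1.93 (7.40, 5.43 and 5.52; limma, adjusted p = 0.0229). PLAUR, the urokinase receptor, was 2.40 lower (8.05, 5.50 and 5.79) and LGALS9, galectin-9, 1.89 lower (8.70, 7.06 and 6.56), and neither passed (limma, adjusted p = 0.0558 and 0.121).

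**Figure D4:**
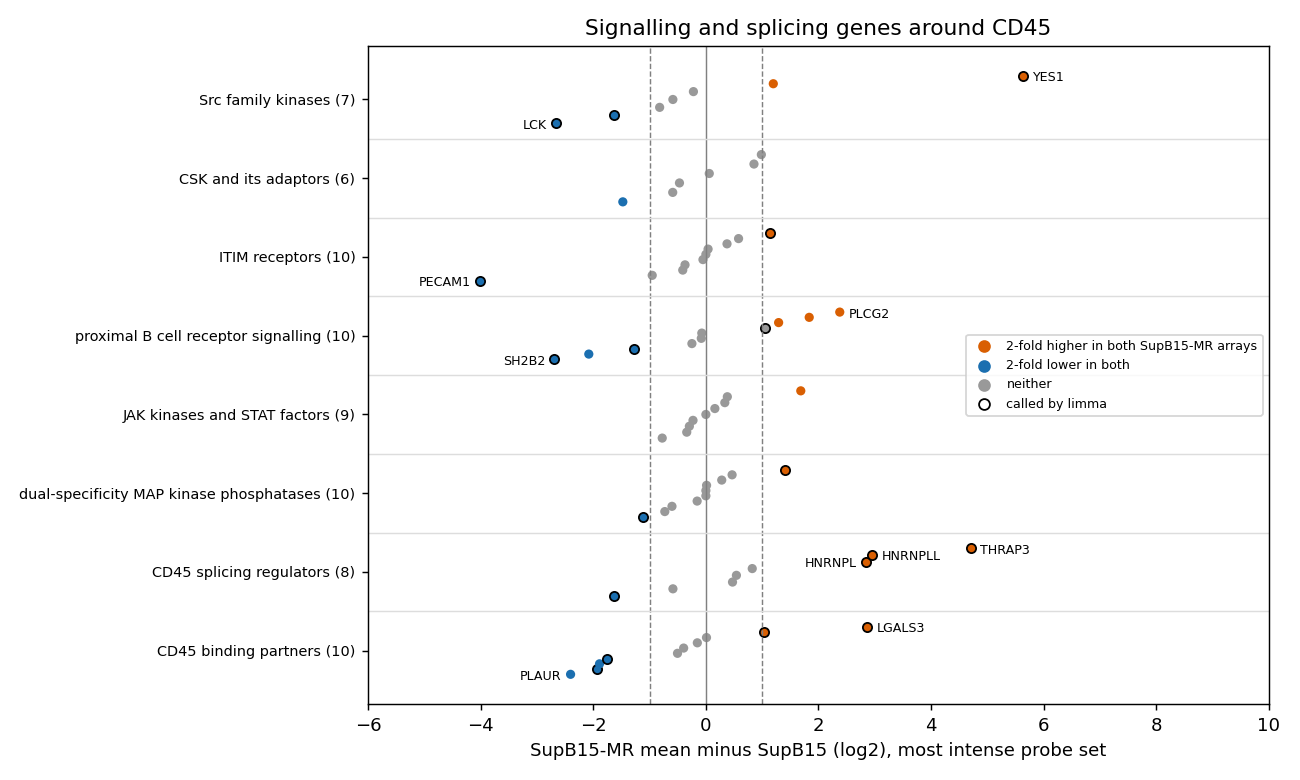
Difference of the SupB15-MR mean from SupB15 (log2, horizontal axis) for the genes of 8 lists around CD45 (vertical axis, tested genes in brackets), 1 point a gene by its most intense probe set; colours mark the 2-fold rule, black rims a limma call and dashed lines the 2-fold limits. The splicing regulators have 3 genes between 2.85 and 4.70, and the Src family spans from -2.67 for LCK to 5.63 for YES1, whose SupB15 value lay under 3.47.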

How the data were processed

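Total RNA of 1 SupB15 and 2 SupB15-MR cultures was labelled with the Ovation biotin system and hybridised to Affymetrix U133 Plus 2 arrays. The authors deposited log2 values normalised by RMA, which quantile-normalises arrays together; the number and make-up of arrays normalised together is not given in the sources used here, and scanner files were not used here. Values were used as deposited. Symbols came from the platform's probe-to-gene table, and probe sets listing several genes were left out; 1 gene named by the PTPN rule is not reported here. Probe sets that exceeded the 20th percentile (3.47) in no array were removed, leaving 46034 of 54675. SupB15-MR was compared with SupB15 in limma 3.58.1 (R 4.3.3) with 1 residual degree of freedom and Benjamini-Hochberg adjustment over all tested probe sets; the script was tested on simulated data. Since 42.7% of probe sets were identical in the SupB15-MR arrays, the prior SD was 0.00102 on 0.313 degrees of freedom, against 0.169 on 17.1 from differing probe sets. No depth applies to arrays, and their number limits the precision. The labels call the SupB15-MR arrays biological replicates and the study's legends call the SupB15-MR cells clones, so p-values measure the spread between these arrays, which may be between clones or technical. Named were all PTPRC probe sets, members with a probe set called or 2-fold away, members with high SupB15 values, and up to 4 such genes a list. Further list genes were added, mostly where a probe set of theirs was called. Members and lists were chosen with earlier results of these data known. Alternatives were array centring, quantile normalisation, other filters, another variance prior, 1-way ANOVA, other probe sets of a gene and leaving out each SupB15-MR array.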

Additional observations from a re-analysis of the deposited data

How the results depend on the processing

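Leaving out either SupB15-MR array, which leaves no residual degrees of freedom and so no test, left 25 to 27 phosphatase probe sets 2-fold higher and 15 to 17 lower. These counts could not drop, because the rule then asks for 1 array in place of both. None of the 39 phosphatase probe set differences changed sign when arrays were rescaled or left out or the test was changed. The 39 were chosen as at least 2-fold away in both arrays. Leaving out an array or changing the test could therefore not turn a sign, and nothing is concluded from it. The choice of probe set did turn genes: with the probe set highest in SupB15 in place of the most intense one, PTPRG went from 1.76 to -3.60, PTPRA from 1.05 to -0.18, THRAP3 from 4.70 to -0.03, VAV2 from 1.84 to -0.79 and CBL from 0.99 to -1.32. The pathway genes were recomputed under no other alternative. Filters made no count move by over 1.5 times. Phosphatase probe sets that fell numbered 6, but 14 with centred arrays, 10 after quantile normalisation and 15 with the variance prior from differing probe sets. Over all probe sets the number that fell also went up, from 4470 to 7798, 6443 and 7471 in the same order. Phosphatase genes that fell numbered 3, but 5 with centred arrays, 6 with that prior and 5 with the probe set highest in SupB15. Genes that rose numbered 11, but 7 with the probe set highest in SupB15 and 5 with the mean over all probe sets. Choosing by the SupB15 array leans towards falls, and counts over all genes under these alternatives are not given here. A 1-way ANOVA, which could be run on 27745 probe sets, called 0 probe sets and 0 genes higher and 0 lower after adjustment, where limma called 19 and 6 probe sets. Without adjustment (p up to 0.05, 2-fold) the ANOVA called 11 higher and 5 lower of 63 phosphatase probe sets. The matching share over all probe sets is not given here, so these counts cannot be set against it. The PTPRC difference of 7.39 on 212587_s_at had an ANOVA adjusted p of 0.143. The cause of these changes was not tested. PTPRC on 212588_at passed with centred arrays (difference 5.76; limma, adjusted p = 0.0205). Of 39 named probe set differences, 4 dropped past the call and 9 joined it on centring. No paired analysis was possible because SupB15 has 1 array. The single SupB15 array, whose own spread is unknown, bears on every difference.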
